A study of Mus musculus with 6 samples.

Results

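The nuclear-encoded genes of the mitochondrial respiratory chain were examined in leptotene/zygotene (L/Z) spermatocytes of control and Eef1g-cKO mice. The group was taken by symbol from the protein-coding genes and held 97 of the 54532 genes counted. It comprised 36 genes of complex I, 8 complex I assembly factors of the Ndufaf series, 4 genes of complex II, 9 of complex III, both cytochrome c genes, 20 of complex IV and 18 of complex V. Of these, 91 had enough reads to be tested, and 82 had at least 10 reads in every library. In Eef1g-cKO cells 6 genes rose, or 6.59% of those tested, where 7.8% of all tested genes rose. Another 12 fell, or 13.2%, where 6.01% of all tested genes fell. Those that fell included 4 of complex IV and the testis cytochrome c gene Cyct, whereas the largest rises were in Atp5f1 and Sdhc.

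The respiratory chain sits in the inner mitochondrial membrane, where complexes I and II pass electrons from NADH and succinate to ubiquinone, complex III passes them on to cytochrome c, and complex IV hands them to oxygen. Complexes I, III and IV pump protons as they do so, and complex V, the ATP synthase, uses the returning protons to make ATP. Most subunits are encoded in the nucleus and imported, while a small set of core subunits is encoded by mitochondrial DNA. Several subunits exist as a common form and a form restricted to particular tissues, and the testis has its own forms of cytochrome c and of some complex IV subunits.

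The samples were 3 control and 3 Eef1g-cKO libraries, made from L/Z spermatocytes, the cells of early meiotic prophase, which were sorted by Hoechst staining from testes at 12 days postpartum (dpp). Control samples carry the genotype label Wild type and are described in the study as littermates. In the knockout, exons 2 to 7 of Eef1g, a gene for part of the translation elongation factor eEF1, are removed by Stra8-GFPCre, a Cre line active from type A1 spermatogonia onward. All mice had a C57BL/6J background. The labels do not say whether the 3 libraries of a group came from separate animals, so p-values measure only the spread between these libraries.

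Libraries held 763133 to 2617648 reads assigned to genes, and Eef1g-cKO replicate 3 was the shallowest. The deleted gene, Eef1g, stood at 222, 226 and 212 CPM in controls and at 139, 151 and 119 CPM in the knockouts, a log2 change of −0.68 (SE 0.20, adjusted p = 0.0290). CPM gives the reads of a gene per 1000000 in its library after scaling. Log2 changes are of Eef1g-cKO against control, and adjusted p-values throughout come from edgeR's quasi-likelihood F test, adjusted by Benjamini-Hochberg over 8513 tested genes. Markers of the sorted stage were present in every library, but their summed level was 8836 to 10022 CPM in controls and 18685 to 24278 CPM in the knockouts, with 5 of 8 markers higher. Spermatogonial markers went the other way (1292 to 1516 against 655 to 792 CPM, 3 of 4 tested lower), as did Sertoli markers (150 to 462 against 26.3 to 85.5 CPM, 3 of 5 lower) and peritubular and stromal markers (137 to 260 against 21.6 to 65.5 CPM, 3 of 3 lower). Markers of pachytene and later cells summed to 24.1 to 43.1 against 3.09 to 18.4 CPM with 1 of 2 tested lower, and no library had reads of Adam3 or Acrv1. Leydig markers summed to at most 10.7 CPM in any library, with none testable and no reads of Hsd3b1 or Cyp17a1, and blood and macrophage markers to at most 101.5 CPM, with 0 of 1 called and no reads of Cd68 or Csf1r. The part of these differences in the results below was not tested. In sorted bulk material, fewer cells of a type and less RNA per cell cannot be told apart. By immunostaining of sorted cells, the study reports a similar share of L/Z spermatocytes in both genotypes.

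The respiratory chain genes that rose made up 6 of 91, or 6.59%, where 7.8% of all tested genes rose. The genes that fell made up 12 of 91, or 13.2%, where 6.01% of all tested genes fell. These shares of all tested genes, 7.8% rising and 6.01% falling, are also the background for the counts by complex and by list below. The tested respiratory chain genes were more abundant, with a median control level of 149 CPM beside 40.1 CPM over all tested genes. The part of abundance in the shares that passed the test was not tested. With the additional requirement of an absolute log2 fold change over 1, 2 genes rose, or 2.2% against a background of 3.42%, and 7 fell, or 7.69% against 4.96%. CPM values of the Eef1g-cKO libraries lay above all controls in 10 genes (11.0%, background 16.4%) and below all controls in 19 (20.9%, background 18.1%). All 18 genes that passed the test were among these 29. The median log2 change of the tested respiratory chain genes was −0.08, with quartiles of −0.53 and 0.24, beside a median of −0.05 and quartiles of −0.62 and 0.43 over all tested genes. The middle of the group therefore lay close to that of all genes in this fit, and only complexes I and V held calls in both directions.

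**Figure D1:**
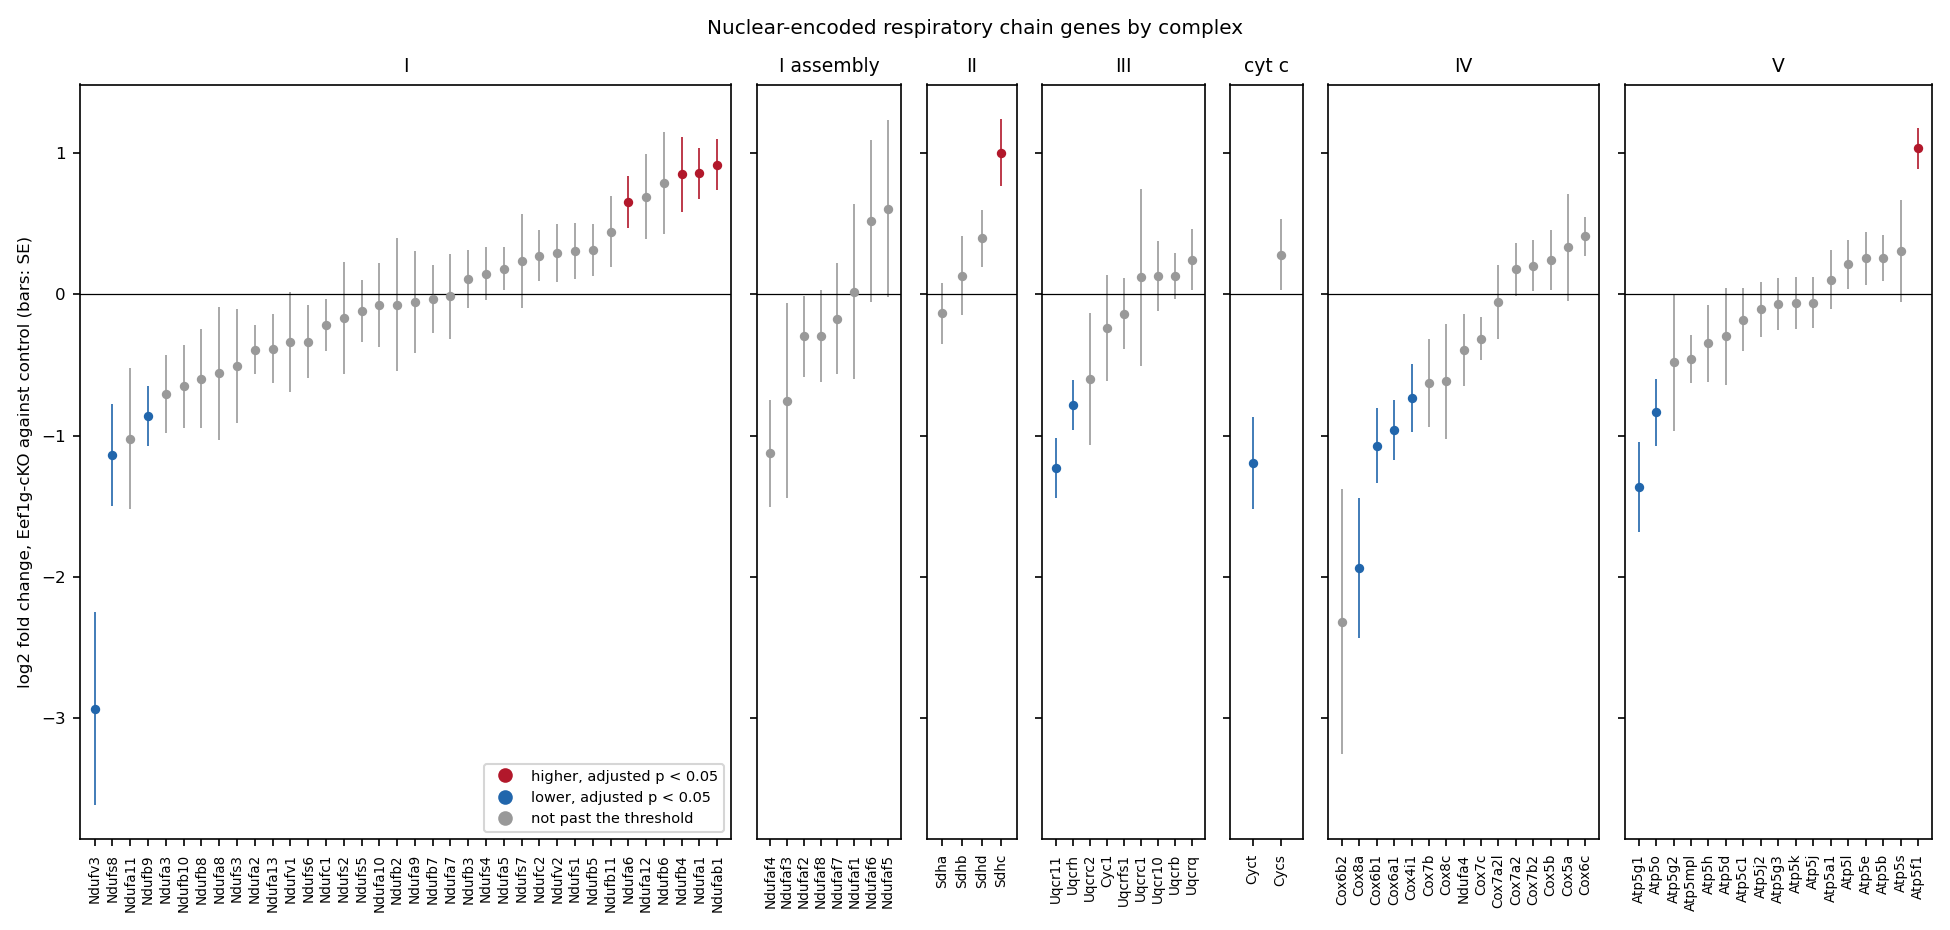
Log2 fold change of each of the 91 tested genes, Eef1g-cKO against control, by complex (n = 3 libraries per genotype), with bars for the standard error. Red points rose and blue points fell at an adjusted p under 0.05. Complexes III and IV and the cytochrome c genes hold no red point, complex II holds a single red point, and complexes I and V hold both.

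Respiratory chain genes took 2.11%, 2.15% and 2.33% of the reads of the control libraries and 2.13%, 2.37% and 1.56% of those of the knockouts. Summed over all 97 genes the level was 20403, 20709 and 21916 CPM in controls and 22575, 24310 and 18399 CPM in Eef1g-cKO, so the ranges overlapped. The last of these libraries, replicate 3, had the lowest CPM of its group in 61 of the 91 tested genes. Without it, 9 genes rose and 11 fell, beside 8.57% and 6.86% of all tested genes. By complex, summed CPM overlapped between genotypes for complexes I, III, IV and V. For complex II it did not, with 570 to 622 CPM in controls and 661 to 815 CPM in the knockouts.

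**Figure D2:**
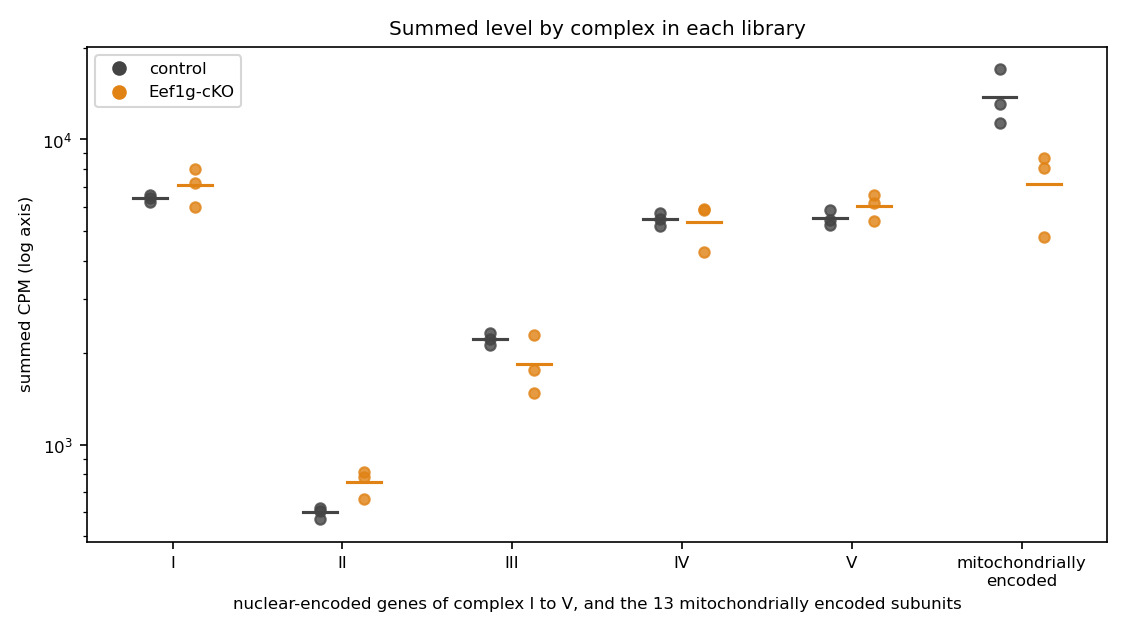
Summed CPM of the nuclear-encoded genes of complexes I to V and of the 13 mitochondrially encoded subunits in each library, on a log axis (points, libraries; lines, group means). The sums depend on the number and length of the genes, so genotypes can be compared within a column but not complexes with each other. The groups are apart for complex II, where Eef1g-cKO is above control, and for the mitochondrially encoded subunits, where it is below.

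The promoters of respiratory chain genes are known for binding sites of the transcription factors NRF1, GABPA, YY1 and the estrogen-related receptors. RefSeq promoters (GRCm38.p6, 250 bases before to 50 bases after the start) were matched to 78 of the 97 genes and searched on both strands for GCATGCGC (NRF1), CCGGAAGT (GABPA), AAGATGGC (YY1), TCAAGGTCA (estrogen-related receptors) and CCAAT. No matches of different motifs overlapped, while the NRF1 letters can overlap themselves on opposite strands. The NRF1 letters were found in 16.7% of the respiratory chain promoters and in 2.71% of 32817 promoters of the same length. The YY1 letters were found in 12.8% against 2.74%, those of the estrogen-related receptors in 2.56% against 0.424%, those of GABPA in 6.41% against 3.89%, and CCAAT in 46.2% against 37.4%. Promoters were available for 5 of the genes that rose and 10 of those that fell. NRF1 matches were found in Ndufa6, which rose, and in Uqcr11 and Cox6a1, which fell. GABPA matches were found in Uqcr11, Uqcrh and Cox8a, which all fell, and the only YY1 match among the called genes was in Atp5f1, which rose. CCAAT was in 2 of the 5 and in 8 of the 10. Among the 61 tested genes without a call, 10 held the NRF1 letters, 2 those of GABPA, 9 those of YY1 and 25 CCAAT. Stretches of 30 bases around matches in genes of both directions are shown here, 5′ to 3′ along the gene, with the matching letters in capitals. A match describes letters and not a site of binding.
Ndufa6 promoter, chr15:82354356-82354385, − strand, NRF1 letters 83 bases before the start: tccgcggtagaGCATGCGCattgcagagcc
Cox6a1 promoter, chr5:115349102-115349131, − strand, NRF1 letters on the opposite strand 162 bases and on the same strand 160 bases before the start, overlapping: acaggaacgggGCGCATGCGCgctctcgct
Uqcr11 promoter, chr10:80406869-80406898, − strand, GABPA letters 66 bases before the start: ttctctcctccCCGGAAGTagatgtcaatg
Uqcrh promoter, chr4:116075071-116075100, − strand, GABPA letters on the opposite strand 11 bases before the start: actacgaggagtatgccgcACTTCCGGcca

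Complex I, the NADH dehydrogenase, had 4 genes that rose and 3 that fell among its 36, all tested, with a median log2 change of −0.07. The highest level per length was that of Ndufa1 (ENSMUSG00000016427, chrX:37187588-37191163, − strand), a small accessory subunit of the membrane arm, at 1592 CPM per kilobase in controls, and Ndufa1 was also among the genes that rose. It had 593, 730 and 678 CPM in controls and 1144, 1558 and 907 CPM in Eef1g-cKO, a log2 change of 0.85 (SE 0.18, adjusted p = 0.00367). All 3 knockouts lay above all 3 controls. Ndufab1 (ENSMUSG00000030869, chr7:122085403-122101886, − strand) is the mitochondrial acyl carrier protein, which is a complex I subunit and also serves mitochondrial fatty acid synthesis. Its CPM was 194, 182 and 205 in controls and 430, 325 and 341 in the knockouts, a log2 change of 0.92 (SE 0.18, adjusted p = 0.00244), again with no overlap. Annotated pseudogenes near-identical to Ndufab1 held reads equal to 34.2% of its own, so its level is uncertain where reads were split between copies.

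Ndufa6 (ENSMUSG00000022450, chr15:82350140-82354322, − strand) and Ndufb9 (ENSMUSG00000022354, chr15:58933756-58939488, + strand) both belong to the LYR-motif proteins, accessory subunits that bind the acyl carrier protein, and they moved in opposite directions. Ndufa6 had 198, 184 and 169 CPM in controls and 276, 318 and 267 CPM in Eef1g-cKO, a log2 change of 0.65 (SE 0.18, adjusted p = 0.0240). Ndufb9 had 204, 180 and 226 CPM in controls and 120, 115 and 98.9 CPM in Eef1g-cKO, a log2 change of −0.86 (SE 0.21, adjusted p = 0.0111). Neither gene overlapped between the genotypes. The call of Ndufa6 was lost under upper-quartile and library-total scaling, with at least 10 reads in every library, with the replicate block and without any control library or Eef1g-cKO replicate 2, and its adjusted p reached 0.129 over all fits. That of Ndufb9 was lost with an offset for GC content or for gene length, the latter also with the replicate block, and without control replicate 1 or 3, and its adjusted p reached 0.178. Ndufb9 shares its strand and position in part with the gene model Gm49356. Ndufb4 (ENSMUSG00000022820, chr16:37647170-37654453, − strand), an accessory subunit of the membrane arm, had 71.0, 99.2 and 62.7 CPM in controls and 166, 140 and 111 CPM in Eef1g-cKO. Its log2 fold change was 0.85 (SE 0.26, adjusted p = 0.0380), and it lost its call under both scalings, with at least 10 reads in every library, with the replicate block and without control replicate 1 or 3 or Eef1g-cKO replicate 1 or 2, with an adjusted p of up to 0.186.

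Among the nuclear-encoded core subunits, which carry the flavin and the iron-sulfur clusters, Ndufs8 (ENSMUSG00000059734, chr19:3908870-3912717, − strand) was the only gene to pass the test. It fell from 68.7, 77.7 and 69.4 CPM to 40.4, 19.2 and 41.7 CPM, a log2 change of −1.14 (SE 0.36, adjusted p = 0.0395), with no overlap. It passed the threshold in 8 of the 18 fits made, the fewest of any called gene, and among the losses were those without any control library or Eef1g-cKO replicate 1 or 2 and with either offset, with an adjusted p of up to 0.204. Ndufs1 and Ndufv1, also core subunits, had log2 fold changes of 0.30 (SE 0.20, adjusted p = 0.346) and −0.34 (SE 0.36, adjusted p = 0.582). Ndufv3 (ENSMUSG00000024038, chr17:31520115-31531326, + strand), a small accessory subunit of the module that oxidises NADH, fell the most of all 91 genes. It had 21, 94 and 49 reads in controls and 2, 18 and 1 in Eef1g-cKO, or 16.0, 49.3 and 27.4 CPM against 1.62, 7.06 and 1.54 CPM. The log2 fold change was −2.93 (SE 0.68, adjusted p = 0.00746), the groups did not overlap, and the call was lost without control replicate 2 (log2 change −2.47, adjusted p = 0.0935). Without Eef1g-cKO replicate 2 the log2 change was −4.20.

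The 8 Ndufaf genes, assembly factors that help build complex I without being part of it, held no call in either direction in the edgeR fit. Their median log2 fold change was −0.23, and values ran from −1.13 to 0.60. The most abundant per length was Ndufaf8, with 84.0, 76.1 and 54.3 CPM in controls and 67.1, 67.8 and 35.5 CPM in the knockouts, which overlapped (log2 fold change −0.30, SE 0.32, adjusted p = 0.601). Ndufaf4, named after its value was seen, stood nearest to the threshold at a log2 change of −1.13 (SE 0.38, adjusted p = 0.0550). It passed the threshold as lower with DESeq2, with limma-voom, under upper-quartile and library-total scaling, with at least 10 reads in every library, with the GC content offset and without Eef1g-cKO replicate 2.

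Complex II, succinate dehydrogenase, is the only complex with no mitochondrially encoded subunit. Sdhc (ENSMUSG00000058076, chr1:171127165-171150603, − strand), which with Sdhd anchors the enzyme in the membrane and holds its heme, rose from 125, 115 and 81.2 CPM to 167, 213 and 266 CPM. Its log2 change of 1.00 (SE 0.24, adjusted p = 0.00872) lay just past the fold limit, the groups did not overlap, and the call was lost without control replicate 3 (adjusted p = 0.0680). Sdhd, the most abundant of the 4 per length at 141 CPM per kilobase in controls, had 175, 158 and 188 CPM in controls and 271, 194 and 221 CPM in Eef1g-cKO. The knockouts were above all controls here as well, but the difference did not pass the test (log2 fold change 0.39, SE 0.20, adjusted p = 0.214). The catalytic subunits Sdha and Sdhb had log2 fold changes of −0.14 (SE 0.21, adjusted p = 0.727) and 0.13 (SE 0.28, adjusted p = 0.811), with overlapping libraries.

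In complex III, 2 of 9 genes fell and none rose, and both encode small subunits. Uqcr11 (ENSMUSG00000020163, chr10:80402997-80406830, − strand), the smallest subunit of the complex, fell from 299, 288 and 358 CPM to 103, 171 and 127 CPM, a log2 change of −1.23 (SE 0.21, adjusted p = 0.000913). Uqcrh (ENSMUSG00000063882, chr4:116066965-116075071, − strand), the hinge protein beside cytochrome c1, fell from 727, 585 and 664 CPM to 373, 463 and 304 CPM, a log2 change of −0.78 (SE 0.17, adjusted p = 0.00557). Neither overlapped between genotypes. Uqcrh lost its call only with the replicate block and gene length offset together (adjusted p = 0.0551). The promoters of both are shown above with GABPA letters. The nuclear-encoded subunits with redox centres did not pass the test. Their log2 fold changes were −0.24 for Cyc1, cytochrome c1 (SE 0.37, adjusted p = 0.728), and −0.14 for Uqcrfs1, the Rieske iron-sulfur protein (SE 0.25, adjusted p = 0.768). Uqcrb, the most abundant per length at 687 CPM per kilobase in controls, had 595, 585 and 626 CPM in controls and 714, 743 and 510 CPM in Eef1g-cKO, which overlapped (log2 fold change 0.13, SE 0.16, adjusted p = 0.663).

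The electron carrier cytochrome c is made from Cycs in most tissues, and male germ cells have a second gene, Cyct (ENSMUSG00000056436, chr2:76353942-76360450, − strand). Cyct fell from 91.6, 80.8 and 101 CPM to 25.1, 52.5 and 40.2 CPM, a log2 change of −1.20 (SE 0.33, adjusted p = 0.0187), with no overlap. Cycs had 189, 347 and 320 CPM in controls and 369, 449 and 213 CPM in Eef1g-cKO, with overlap and a log2 change of 0.28 (SE 0.25, adjusted p = 0.521). Per length, Cyct made up 71.5%, 54.8% and 62.2% of the summed level of both genes in controls and 26.1%, 37.8% and 49.5% in the knockouts. The share was thus 62.8% ± 8.41 against 37.8% ± 11.7 (SD, n = 3), lower in every knockout than in every control. It rests on annotated lengths of 3404 bases for Cycs and 655 bases for Cyct. In CPM, not divided by length, Cycs was above Cyct in every library. The call of Cyct was lost with a gene length offset, with or without the replicate block, and on leaving out any control library or Eef1g-cKO replicate 1, and its adjusted p over all fits ran from 0.00654 to 0.0986.

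Complex IV, cytochrome c oxidase, held 4 genes that fell and none that rose among 15 tested, with a median log2 change of −0.39. Cox8a (ENSMUSG00000035885, chr19:7215158-7217616, − strand), the smallest subunit, fell the most, from 78.6, 92.9 and 111 CPM to 17, 45.5 and 3.09 CPM, a log2 change of −1.94 (SE 0.50, adjusted p = 0.0162). The lowest value rests on 2 reads in Eef1g-cKO replicate 3. The call was lost without control replicate 2 or 3 or Eef1g-cKO replicate 1, with an adjusted p of up to 0.0913. Its log2 change was −3.03 without Eef1g-cKO replicate 2 and −1.50 without replicate 3. Cox6b1 (ENSMUSG00000036751, chr7:30616861-30626151, − strand), which lies at the contact between the monomers of the enzyme, fell from 140, 126 and 182 CPM to 69.5, 87.8 and 51.0 CPM (log2 fold change −1.07, SE 0.27, adjusted p = 0.0113). Cox6a1 (ENSMUSG00000041697, chr5:115345642-115348981, − strand), the common form of a regulatory subunit, fell from 343, 325 and 336 CPM to 187, 208 and 113 CPM (log2 fold change −0.96, SE 0.21, adjusted p = 0.00498). Cox6a1 had the highest transcript GC content of the called genes, 62.7%, and its call was lost with an offset for GC content, where the log2 fold change was −0.39 (adjusted p = 0.224). Cox4i1 (ENSMUSG00000031818, chr8:120668222-120674207, + strand), the common form of subunit IV, fell from 211, 216 and 297 CPM to 119, 200 and 110 CPM (log2 fold change −0.73, SE 0.24). Its adjusted p of 0.0498 was at the threshold, it passed in 9 of 18 fits with a highest adjusted p of 0.505, and it overlaps the gene model Gm20388 on the same strand. In all 4 genes every knockout lay below every control. Cox6b1 lost its call without control replicate 3 (adjusted p = 0.102) and with the replicate block and length offset together (adjusted p = 0.0660). Cox4i1 lost its call without any control library or Eef1g-cKO replicate 1 or 3. It was also lost with the gene length offset, the replicate block, and both together. With the GC content offset the log2 fold change of Cox4i1 was −0.27 (adjusted p = 0.505).

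The other complex IV genes included those with the highest levels. Cox7c, the most abundant per length at 1066 CPM per kilobase in controls, had 1055, 1366 and 1195 CPM in controls and 1056, 1017 and 828 CPM in Eef1g-cKO, with overlap (log2 fold change −0.32, SE 0.15, adjusted p = 0.183). Cox6c had 1624, 1485 and 1737 CPM in controls and 2406, 2174 and 1847 CPM in Eef1g-cKO. The knockouts lay above all controls, but the difference just missed the threshold (log2 fold change 0.41, SE 0.14, adjusted p = 0.0586). Cox6c passed the threshold as higher with limma-voom, with the gene length or GC content offset, and without Eef1g-cKO replicate 3. Ndufa4, named for complex I but a subunit of complex IV, had a log2 change of −0.39 (SE 0.26, adjusted p = 0.345).

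Forms of complex IV subunits that are restricted to testis or other tissues differed in how they moved. Cox7b2, the testis form of Cox7b, was the main form in these cells, at 86.7% to 89.7% of the summed level of both genes per length in controls and 91.9% to 94.7% in Eef1g-cKO. Cox7b2 had 235, 290 and 288 CPM in controls and 331, 329 and 273 CPM in the knockouts (log2 fold change 0.20, SE 0.18, adjusted p = 0.501), while Cox7b had 80.9, 77.2 and 73.9 CPM against 47.7, 64.7 and 34.0 CPM (log2 fold change −0.63, SE 0.31, adjusted p = 0.202). The share of Cox7b2 was higher in every knockout, although neither gene passed the test. Cox8c, the testis form of Cox8a, had 41.2, 47.8 and 34.7 CPM in controls and 20.2, 23.9 and 38.6 CPM in Eef1g-cKO (log2 fold change −0.62, SE 0.41, adjusted p = 0.346). Its share of the pair was 27.0% to 38.4% in controls and 38.5% to 93.7% in the knockouts, and the highest of these was Eef1g-cKO replicate 3, with its 2 reads of Cox8a.

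Cox6b2, the testis form of Cox6b1, was a minor form, with 12, 28 and 45 reads in controls and 0, 19 and 0 in Eef1g-cKO. In CPM these were 9.16, 14.7 and 25.2 against 0, 7.45 and 0, where 3 reads, the limit that a count of 0 allows, correspond to 2.43 CPM in Eef1g-cKO replicate 1 and 4.63 CPM in replicate 3. The difference did not pass the test (log2 fold change −2.32, SE 0.94, adjusted p = 0.112). Cox7a1, the heart and muscle form of Cox7a2, had 14, 12 and 12 reads in controls and 2, 0 and 0 in Eef1g-cKO and was too low to test, and Cox8b, another muscle form, had 2 reads in control replicate 1 and none elsewhere. Cox7a2 itself had 545, 619 and 696 CPM in controls and 792, 812 and 487 CPM in the knockouts, which overlapped (log2 fold change 0.17, SE 0.18, adjusted p = 0.589). The tissue forms Cox4i2, Cox6a2 and Ndufa4l2 had no reads in any library, which allows up to 1.18 to 4.63 CPM depending on the library.

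**Figure D3:**
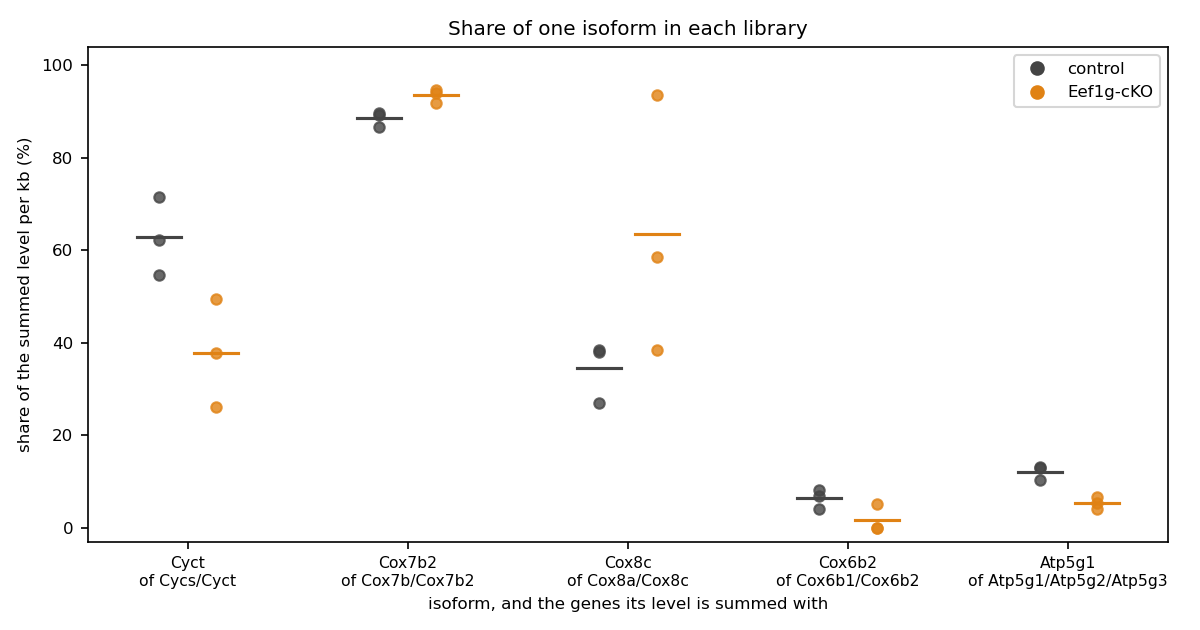
Share of 1 form in the summed CPM per kilobase of the genes named under it, in each library (points, libraries; lines, group means; n = 3 per genotype). The share of Cyct is 26.1% to 49.5% in Eef1g-cKO and 54.8% to 71.5% in controls, that of Cox7b2 is slightly higher in the knockouts, and those of Cox8c and Cox6b2 are widely spread in Eef1g-cKO.

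Complex V, the ATP synthase, had 1 gene that rose and 2 that fell among 17 tested, with a median log2 change of −0.07. Atp5f1 (ENSMUSG00000000563, chr3:105942698-105960099, − strand) encodes subunit b of the peripheral stalk, which holds the catalytic head in place. It had 685, 847 and 889 CPM in controls and 1676, 1600 and 1677 CPM in Eef1g-cKO, a log2 change of 1.03 (SE 0.14, adjusted p = 0.000133), the smallest adjusted p of the group. The knockouts lay well above all controls. Atp5o (ENSMUSG00000022956, chr16:91925214-91931687, − strand), which joins the same stalk to the head, fell from 214, 224 and 217 CPM to 113, 165 and 81.9 CPM, a log2 change of −0.83 (SE 0.24, adjusted p = 0.0240). A second gene identifier of the same symbol, ENSMUSG00000116933, overlaps it and had no reads, and its near-identical pseudogene copy held reads equal to 7.43% of its own. The call of Atp5o was lost with the replicate block and gene length offset together and on leaving out any control library or Eef1g-cKO replicate 1, with an adjusted p of up to 0.0949. The remaining stalk subunits Atp5h and Atp5j had log2 fold changes of −0.35 (SE 0.27, adjusted p = 0.441) and −0.06 (SE 0.18, adjusted p = 0.866), so of the 4 stalk genes 1 rose and 1 fell.

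Atp5g1 (ENSMUSG00000006057, chr11:96068852-96075670, − strand), Atp5g2 and Atp5g3 encode the same mature subunit c of the membrane ring and differ in the leader that directs import. Atp5g1 fell from 94.6, 89.8 and 98.0 CPM to 50.1, 27.4 and 32.4 CPM, a log2 change of −1.36 (SE 0.32, adjusted p = 0.00759), with no overlap. Its pseudogene copies held reads equal to 23.8% of its own. Atp5g3 supplied most of the level of the 3 genes per length, 74.4% ± 6.11 in controls and 82.8% ± 1.69 in Eef1g-cKO (SD, n = 3), and had 257, 227 and 289 CPM against 267, 245 and 222 CPM (log2 fold change −0.07, SE 0.18, adjusted p = 0.846). Atp5g2 had 14.5, 31.5 and 67.7 CPM in controls and 31.5, 27.8 and 21.6 CPM in the knockouts (log2 fold change −0.48, SE 0.49, adjusted p = 0.565). The share of Atp5g1 was 12.2% ± 1.58 in controls and 5.44% ± 1.29 in Eef1g-cKO, with no overlap, while both other genes overlapped.

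Genes of the catalytic head stood without a call. Atp5a1, subunit alpha, had a log2 change of 0.10 (SE 0.21, adjusted p = 0.80) and Atp5b, subunit beta, of 0.25 (SE 0.16, adjusted p = 0.328). Atp5mpl, a small membrane subunit and the most abundant gene of the complex per length at 703 CPM per kilobase in controls, had 780, 831 and 956 CPM in controls and 690, 706 and 466 CPM in Eef1g-cKO. All knockouts lay below all controls, but the difference missed the threshold (log2 fold change −0.46, SE 0.17, adjusted p = 0.0831). Atp5l, a subunit of the membrane part, had a log2 change of 0.21 (SE 0.17, adjusted p = 0.469).

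**Figure D4:**
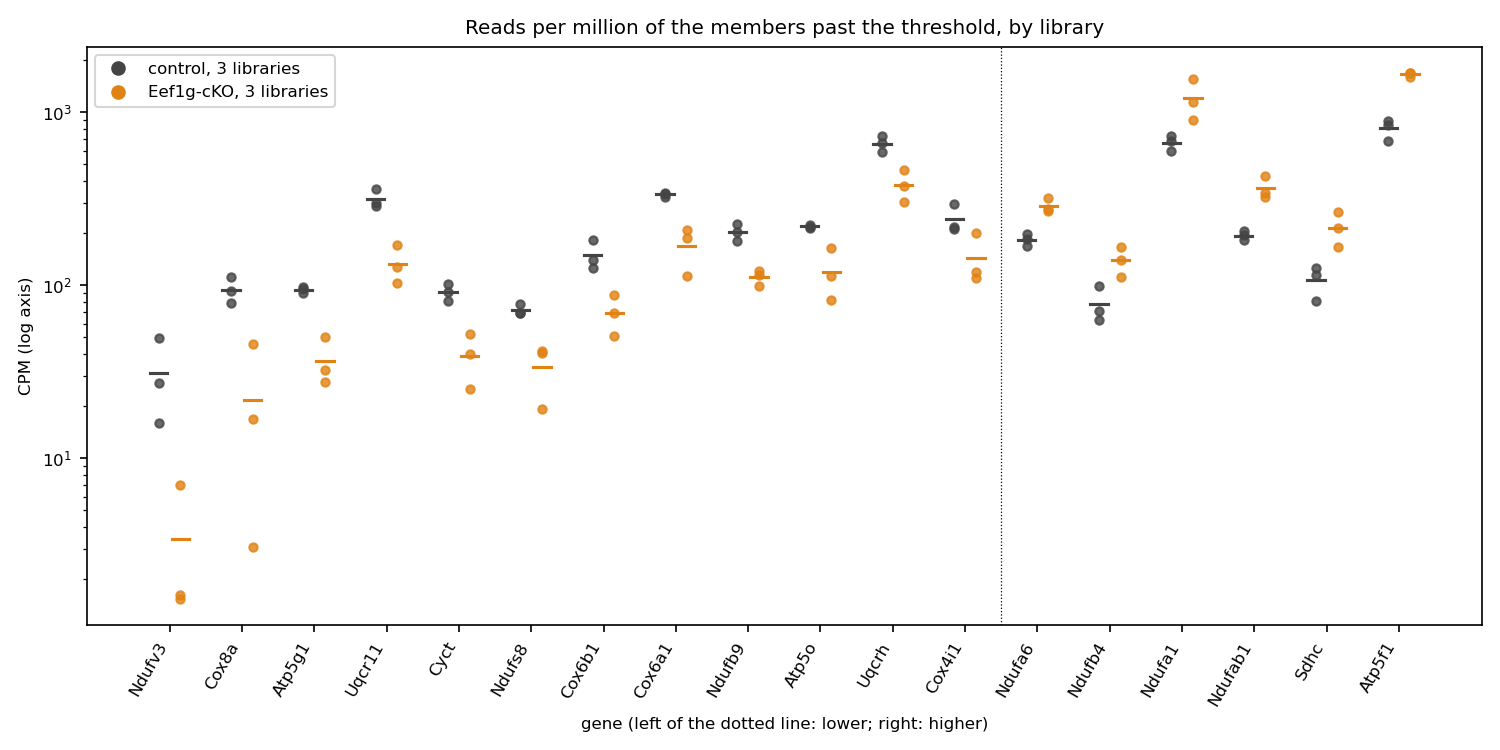
CPM of the 18 genes that passed the test in each library, on a log axis (grey, 3 controls; orange, 3 Eef1g-cKO; lines, group means). The 12 genes left of the dotted line fell and the 6 right of it rose, with no overlap between genotypes in any of them. The spread among knockouts is wide for Ndufv3 and Cox8a, each with a library of 1 or 2 reads there.

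The genes that fell and rose also differed in transcript features that the choice of genes did not use. The median length of the gene models was 997 bases for the 12 that fell, 2583 bases for the 6 that rose and 1701 bases for all 91 tested, and median GC content was 53.0%, 48.1% and 49.7%. Across all tested genes the called ones were divided in the same way, with a median GC content of 43.0% for genes that rose and 50.7% for genes that fell. Spearman's rho between GC content and log2 fold change was −0.31 over the 91 genes and −0.28 over 8508 genes with a GC value, as a description across genes that share their libraries. The split of calls changed with offsets and scalings. Of the 18 calls, 6 were upward, or 33.3%. With an offset for GC content 9 genes rose and 10 fell (47.4% upward), and with an offset for gene length 9 rose and 8 fell (52.9% upward). The calls over all tested genes changed as well. In the main fit 7.8% rose and 6.01% fell, with the GC content offset 7.06% and 4.60%, and with the gene length offset 9.27% and 5.07%. Upper-quartile and library-total scaling each gave 4 that rose and 14 that fell (22.2% upward), and moved the median of all tested genes by −0.12 and −0.19. Of all tested genes, 5.44% rose and 7.51% fell under the former, and 3.91% and 7.55% under the latter. The part of GC content and length in the calls was not tested beyond these offsets.

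**Figure D5:**
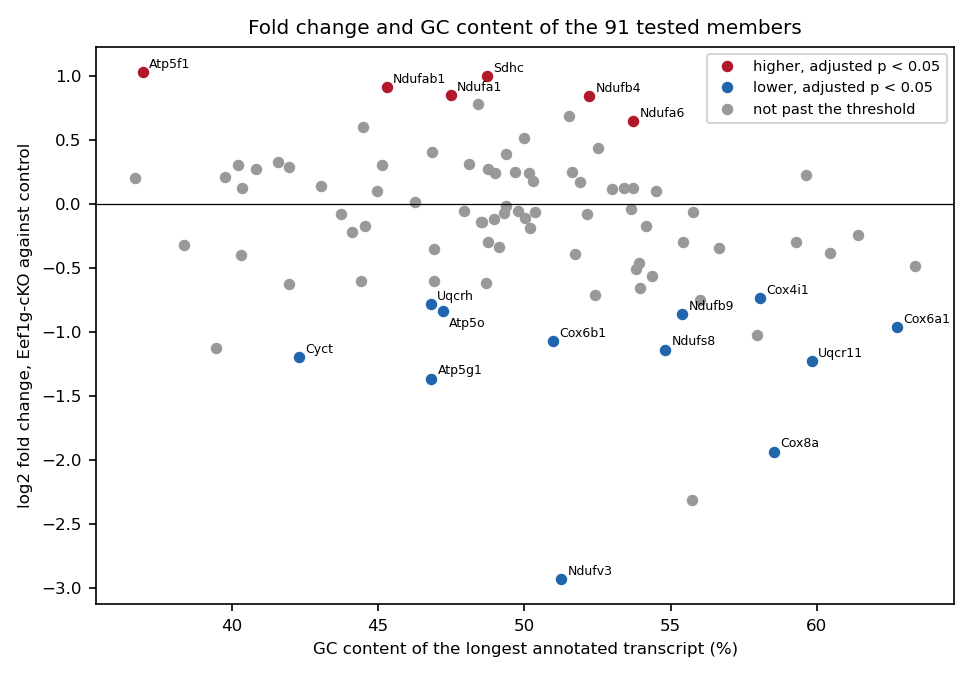
Log2 fold change against the GC content of the longest annotated transcript for the 91 tested genes (red, rose; blue, fell; grey, not past the threshold). Genes that rose lie between 37.0% and 53.7% GC and genes that fell between 42.3% and 62.7%, so the ranges overlap while the points drift downward to the right.

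Near-identical pseudogene copies, at 95% identity or more over at least 100 bases, were annotated for 23 of the 97 genes and for 6 of the 18 called. Besides the values given above for Ndufab1, Atp5g1 and Atp5o, the reads of such copies came to at most 3.89% of those of a called gene. Among the genes without a call they came to 36% for Ndufa12, 31.2% for Atp5l, 27.0% for Cox7c, 23.3% for Atp5h, 18.4% for Ndufs3 and 11.3% for Atp5c1, so the levels of these genes are uncertain too. The called genes Atp5f1, Uqcrh, Ndufab1, Cox4i1 and Atp5o overlap gene models on the opposite strand, Wdr77 and Gm42890 in the case of Atp5f1. Whether reads were counted by strand is not known, and the part of these overlaps was not tested. Of the 18 called genes, 5 kept their call in all fits, namely Atp5f1, Atp5g1, Ndufa1, Ndufab1 and Uqcr11. All 18 kept their direction in every fit in which they were tested.

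The parts of the chain outside this group were measured beside it. Of the 13 subunits encoded by mitochondrial DNA, 11 were tested, 6 fell and none rose, with a median log2 change of −0.82. Their summed level was 13803 ± 2865 CPM in controls and 7172 ± 2099 CPM in Eef1g-cKO (SD, n = 3), with no overlap. The largest falls were in mt-Cytb, the complex III cytochrome b (log2 fold change −1.19, SE 0.25, adjusted p = 0.0100), in mt-Nd6 of complex I (−1.18, SE 0.25, adjusted p = 0.00514) and in mt-Co1, the catalytic subunit of complex IV (−1.06, SE 0.17, adjusted p = 0.000494). mt-Nd5, mt-Atp6 and mt-Nd1 also fell, by 0.86, 0.82 and 0.82 on the log2 scale. A list of 45 nuclear-encoded assembly and accessory factors, other than the Ndufaf genes, gave 2 that fell and none that rose among 37 tested, with a median log2 change of 0.02. The pair were Uqcc3, an assembly factor of complex III (−3.14, SE 0.71, adjusted p = 0.00605), and Atpif1, the inhibitor of the ATP synthase (−1.16, SE 0.25, adjusted p = 0.00525). Uqcc3 was low, with 51, 74 and 28 reads in controls and 7, 9 and 0 in Eef1g-cKO, the 0 in the shallowest library.

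Regulators of respiratory genes held 1 call among 13 tested, with a median log2 change of 0.00. Gabpa, the DNA-binding subunit of the factor whose letters were searched above, rose from 143, 208 and 162 CPM to 226, 300 and 321 CPM, a log2 change of 0.72 (SE 0.21, adjusted p = 0.0262). Nrf1 had 51.9, 48.8 and 37.5 CPM in controls and 42.0, 43.5 and 54.1 CPM in Eef1g-cKO (log2 fold change 0.00, SE 0.34, adjusted p = 0.994). Tfam, which packages mitochondrial DNA and takes part in its transcription, had a log2 change of −0.15 (SE 0.29, adjusted p = 0.795). Ppargc1b and Esrra had no reads in any library.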

How the data were processed

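RNA-seq was available for 6 libraries of L/Z spermatocytes. Per the labels and the study's methods, cDNA was amplified as full-length molecules from small inputs, without molecular identifiers, so limits given for counts of 0 reflect counting error alone. The authors filtered reads with fastp, aligned them to GRCm38 with HISAT2 2.2.1 and counted them with featureCounts 2.0.6. Strand and multi-mapping settings are not given in the sources used here. DESeq2 is also named in the submitters' processing notes. The deposited table gives unnormalised read counts for each gene, beside gene position and length.

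From these counts, 8513 genes passed edgeR 4.0.16 filterByExpr (minimum count 10, minimum total 15) in R 4.3.3. Libraries were scaled by TMM, and genotype was tested with the robust quasi-likelihood F test, with Benjamini-Hochberg adjustment over all tested genes and a threshold of 0.05. The fold limit, an absolute log2 fold change over 1, is the study's. CPM uses TMM-scaled totals. Standard errors are the absolute log2 fold change over the square root of F. The method was tested on simulated data.

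Alternatives were other scalings, filters, DESeq2 1.42.0, limma 3.58.1 voom, offsets for length or GC content, a replicate block, and each library left out. The genes, the other lists and the tests were chosen with earlier results of these data known. Named genes were all that passed the test, the most abundant tested gene per length of each complex, the isoform pairs, and up to 6 called genes of each other list. Other genes were named to complete a complex, after their values were seen. Cox6c2 and Atp5l2 were not among the 97 genes. Pseudogene copies were found with blastn 2.17.0 against GENCODE release M21, which also gave GC content. No libraries agreed within sampling noise (chi-square per degree of freedom at least 6.37).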

Additional observations from a re-analysis of the deposited data

How the results depend on the processing

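The number of respiratory chain genes that fell was 12 in the reported fit. Across the alternatives it moved by more than 1.5 times only in 2 cases. These were the replicate block together with the gene length offset, to 5, and any fit that left out a control library. Leaving out each library in turn gave 3 to 9 genes that rose, 5 to 17 that fell and 4 to 16 past the fold limit. The fewest were found without control replicate 3 and the most that fell without Eef1g-cKO replicate 2. Of all tested genes, 4.08% to 8.57% rose and 2.52% to 6.86% fell in these fits. The group's median log2 fold change then ran from −0.16 to −0.02, and that of all tested genes from −0.08 to −0.04. The group's median was −0.27 with library totals, 0.02 with the gene length offset and 0.07 with the GC content offset, so its sign depended on these offsets. The median of all tested genes moved alongside and changed sign too, at −0.24, 0.02 and 0.03 in the same fits. The choice of low-count filter instead moved the medians apart, in opposite directions. Keeping only genes that reached 10 reads in all libraries (5567 genes) gave −0.21 for the group and −0.004 for all tested genes. In that fit 4 of the group rose and 15 fell, beside 8.78% and 7.20% of all tested genes. Without a low-count filter (22130 genes), the medians were −0.06 and −0.30. The replicate block alone gave 4 that rose and 10 that fell, beside 5.83% and 4.43% of all tested genes. With the gene length offset as well, 4.16% of all tested genes fell. Deviations of same-numbered libraries correlated at −0.04, 0.02 and −0.05, so no shared effect of replicate number was seen. These values cannot show whether same-numbered samples were littermates or handled together, and the labels do not say. The GC content offset was added after the data were seen. The fall of Eef1g missed the threshold without a low-count filter (log2 fold change −0.64, adjusted p = 0.0837), with the gene length offset (−0.55, 0.0676), the replicate block (−0.69, 0.0585), both together (−0.56, 0.115) and the GC content offset (−0.42, 0.191). With 1 library left out, Eef1g had values of −0.75 to −0.56 and adjusted p-values of 0.0386 to 0.121, and the threshold was passed only without Eef1g-cKO replicate 2 or 3. The cause of these changes was not tested, and fewer libraries were used where 1 was left out. Depth limits the low genes, since 3 reads correspond to 4.63 CPM in Eef1g-cKO replicate 3.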

Other observations

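Pathways that feed the respiratory chain were measured in the same libraries, where 7.8% of all tested genes rose and 6.01% fell. Of 18 genes of pyruvate dehydrogenase and the citric acid cycle, 16 were tested, 1 rose and 1 fell, with a median log2 change of 0.12. Dld, the dihydrolipoamide dehydrogenase shared by the 2-oxoacid dehydrogenase complexes, had 202, 232 and 195 CPM in controls and 409, 364 and 314 CPM in Eef1g-cKO, a log2 change of 0.79 (SE 0.18, adjusted p = 0.00611). Mdh2, mitochondrial malate dehydrogenase, had 286, 305 and 260 CPM in controls and 126, 142 and 151 CPM in Eef1g-cKO, a log2 change of −1.02 (SE 0.19, adjusted p = 0.00157). Neither gene overlapped between the genotypes.

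Nuclear-encoded subunits reach the inner membrane through the import machinery, of which 19 of 20 listed genes were tested, 2 rose and 2 fell, with a median log2 change of −0.10. Hspe1, the matrix co-chaperonin, fell from 832, 898 and 979 CPM to 329, 447 and 385 CPM, a log2 change of −1.22 (SE 0.16, adjusted p = 7.09e-05). Timm44, which tethers the import motor at the inner membrane, fell from 59.5, 50.9 and 50.4 CPM to 14.6, 23.1 and 17 CPM (−1.52, SE 0.39, adjusted p = 0.0134). The outer membrane receptors Tomm20 and Tomm70a went the other way, with log2 fold changes of 0.84 (SE 0.26, adjusted p = 0.0374) and 0.70 (SE 0.18, adjusted p = 0.0142). Tomm20 had 122, 110 and 120 CPM in controls and 285, 219 and 119 CPM in Eef1g-cKO, so its groups overlapped through Eef1g-cKO replicate 3.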
